A study of Mus musculus with 8 samples.

Results

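The genes of cholesterol and oxysterol metabolism were examined in cardiac fibroblasts of the mouse, as 35 genes taken by symbol from the 18957 genes listed in each count file. They comprised 18 enzymes of cholesterol synthesis, 5 genes of the SREBP machinery that senses sterols, 5 genes of uptake, transport and storage, 4 genes of the liver X receptor (LXR) and efflux arm, and 3 oxysterol enzymes with cholesterol 25-hydroxylase (Ch25h) among them. RNA was sequenced from ventricular cells sorted for PDGFRA, a receptor that marks most cardiac fibroblasts, without hematopoietic lineage markers, as 4 libraries of WT and 4 of Pdgfra-Cre:LmnaF/F mice. The mice were 3 to 4 weeks old and of the strain C57BL/6 (mixed), and the number of mice behind each library is not given in the sources used here.

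The Pdgfra-Cre:LmnaF/F mice carried a bacterial artificial chromosome transgene that expresses Cre under the Pdgfra locus, together with floxed exon 2 of both Lmna alleles, while the WT mice were littermates with wild-type alleles only. Pdgfra is active in several mesenchymal tissues and in some cardiac myocytes of the embryo, so the deletion is not limited to fibroblasts. No library of a mouse with Cre alone was analysed here, so the transgene and the loss of Lmna cannot be told apart. All cells had passed through collagenase digestion and sorting.

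Cells make cholesterol from acetyl-CoA by way of mevalonate, squalene and lanosterol, and they take it up with lipoproteins and unload it through the lysosome. When sterols in the endoplasmic reticulum are low, SCAP escorts SREBP2 to the Golgi, where SREBP2 is cleaved and then activates the synthesis genes, and INSIG proteins hold SCAP back when sterols are high. Oxysterols, which are hydroxylated forms of cholesterol, promote the binding of INSIG and activate the LXRs, which in turn induce the transporters Abca1 and Abcg1 and the ubiquitin ligase Mylip. Ch25h makes 25-hydroxycholesterol, a signal best known from macrophages in inflammation and antiviral defence.

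The promoters of the genes that the results turn on are shown first, so that their sequence elements can be seen beside the levels. The sequences are from RefSeq (GRCm38.p6) and run 5′ to 3′ on the strand of the gene, up to the start. Each window held the 250 bases before the RefSeq start, less bases that GENCODE places in an exon of the same gene, which shortened the window of Ch25h by 16 bases and that of Lss by 17. Ch25h is shown as the member with the largest difference between the genotypes (chr19:34475165-34475398, minus strand), and its capitals mark a cAMP response element (CRE), TGACGTCA, which begins 45 bases from the end of the printed window and 61 bases before the RefSeq start. In this window 16 bases also lay in annotated exons of another gene.
Ch25h: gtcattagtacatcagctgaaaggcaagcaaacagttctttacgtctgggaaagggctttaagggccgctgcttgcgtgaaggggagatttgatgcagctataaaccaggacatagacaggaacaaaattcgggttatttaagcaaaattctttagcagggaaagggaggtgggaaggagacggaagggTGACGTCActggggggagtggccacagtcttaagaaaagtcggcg
Mylip (chr13:45389492-45389741, plus strand) and Sc5d (chr9:42264301-42264550, minus strand) are shown since they had the lowest p after Ch25h, and their capitals mark the CCAAT box, CCAAT, here read as its reverse complement ATTGG.
Mylip: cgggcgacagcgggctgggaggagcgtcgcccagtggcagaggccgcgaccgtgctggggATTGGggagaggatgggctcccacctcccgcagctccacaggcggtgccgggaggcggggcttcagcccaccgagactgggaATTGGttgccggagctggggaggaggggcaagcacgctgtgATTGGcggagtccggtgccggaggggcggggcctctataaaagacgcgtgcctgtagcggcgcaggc
Sc5d: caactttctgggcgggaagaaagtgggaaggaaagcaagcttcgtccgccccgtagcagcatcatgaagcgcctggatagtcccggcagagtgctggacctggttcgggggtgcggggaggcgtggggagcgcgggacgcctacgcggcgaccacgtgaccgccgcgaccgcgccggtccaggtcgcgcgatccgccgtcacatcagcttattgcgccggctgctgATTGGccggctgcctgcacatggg
Lss (chr10:76531355-76531587, plus strand) is shown as the synthesis gene with the largest positive difference, with the CCAAT box in capitals.
Lss: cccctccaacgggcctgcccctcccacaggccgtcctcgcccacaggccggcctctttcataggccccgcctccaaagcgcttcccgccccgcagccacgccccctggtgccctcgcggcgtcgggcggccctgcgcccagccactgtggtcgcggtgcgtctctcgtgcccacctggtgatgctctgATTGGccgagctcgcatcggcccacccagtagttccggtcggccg
Hmgcs1 (chr13:119690101-119690350, plus strand) is shown as the single member with a sterol regulatory element (SRE)-like match, TCACNCCAC, which is in capitals together with its 3 CCAAT boxes.
Hmgcs1: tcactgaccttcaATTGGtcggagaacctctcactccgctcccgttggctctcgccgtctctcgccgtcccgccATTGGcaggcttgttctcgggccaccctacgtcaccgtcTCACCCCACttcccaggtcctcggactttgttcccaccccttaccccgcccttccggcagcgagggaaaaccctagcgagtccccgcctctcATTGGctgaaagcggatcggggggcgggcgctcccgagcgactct

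The CCAAT box, bound by NF-Y, which acts together with SREBPs, was common among the promoters of the synthesis genes. Of the 35 genes, 28 had a promoter window in the reference, and Fdps, Fdft1, Sqle, Npc1, Stard4, Abcg1 and Cyp7b1 had none. On either strand, CCAAT occurred in 14 of 15 synthesis genes, all but Acat2, and in 4 of 5 SREBP genes, all but Scap. It also occurred in Mylip, Npc2 and Soat1 of the uptake genes and in Cyp27a1, and in none of the 3 efflux genes with a window. Of all 27025 genes with a window in the reference, 37.5% held it (33.8% of the 32851 windows, since a gene can have several). The SRE-like motif was found in 1.22% of all genes (1.05% of windows), and among the members in Hmgcs1 alone. The CRE was found in 1.77% of all genes (1.55% of windows), and among the members in Ch25h alone. A TATAAA box, present in 14.3% of all genes (12.4% of windows), was found in Ch25h, Mylip, Abca1 and Scap. An interferon-type motif of 2 GAAA blocks 2 bases apart, in 3.46% of all genes (2.98% of windows), was found in Ebp and not in Ch25h, and the LXR repeat of 2 AGGTCA half-sites 4 bases apart, in 0.0148% of all genes (0.0152% of windows), in no member. None of these motifs is contained in another, and a match describes the letters of a window and not a bound site.

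The count files showed the targeted gene and the expected cell type in all libraries. Lmna was at 331, 274, 483 and 374 CPM in WT replicates 1 to 4 and at 126, 97.4, 130 and 90.4 CPM in the Pdgfra-Cre:LmnaF/F replicates, with CPM standing for counts scaled to library size and TMM factors. The groups did not overlap, and the log2 fold change of Lmna was -1.72 (SE 0.22), with an adjusted p of 0.00492 by the quasi-likelihood test of edgeR with Benjamini-Hochberg adjustment. Total counts lay between 2080555 (WT replicate 2) and 12502949, and 3 counts or fewer, taken as the floor, correspond to at most 1.51 CPM there and to 0.25 to 0.479 CPM in the other libraries. The summed level of 8 fibroblast markers was 46700 to 54100 CPM in WT and 40400 to 56000 CPM in Pdgfra-Cre:LmnaF/F libraries. Pdgfra-Cre:LmnaF/F replicate 4 stood apart, with 646 CPM of 14 macrophage and monocyte markers, against 75.6 to 236 CPM in the other libraries, and 5590 CPM of 8 cardiomyocyte markers, against 300 to 1030 CPM. Reads of Y-linked genes were present in WT replicates 1, 2 and 4 and in Pdgfra-Cre:LmnaF/F replicate 4 (143 to 273 CPM) and near 0 in the other 4 libraries (0.207 to 1.96 CPM), so they were unevenly spread over the genotypes.

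Of the sterol genes, Ch25h alone passed the test for a difference between the genotypes, and it was higher in the Pdgfra-Cre:LmnaF/F cells. Of the 35 genes, 34 had enough counts for the test and Fdps did not. Thus 1 of the 34 had an adjusted p under 0.05 in edgeR, and 0.407% of all 13036 genes tested passed (53 genes, 22 higher and 31 lower). The study had already named Ch25h among the upregulated genes of these same libraries, so this count is not independent of the choice of genes. At an unadjusted p under 0.05, the members were Ch25h, Mylip and Sc5d, 3 of 34, against 11.9% of all genes (6.24% higher, as Ch25h and Mylip, and 5.65% lower, as Sc5d). Ch25h and Mylip were also the 2 members whose CPM did not overlap between the groups, against 8.03% of all genes (4.06% higher, as these were, and 3.97% lower). The median log2 fold change of the 34 genes was -0.01, beside 0.02 over all genes tested, with 17 genes fitted higher and 17 lower, where 51.8% of all genes were fitted higher. For 14 of the 34 genes, the 95% interval of the log2 fold change lay within -1 to 1, that is, within 2-fold either way, against 41.6% of all genes. In RNA from bulk cells, a lower level cannot be assigned to fewer cells that express a gene or to less RNA per cell.

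**Figure D1:**
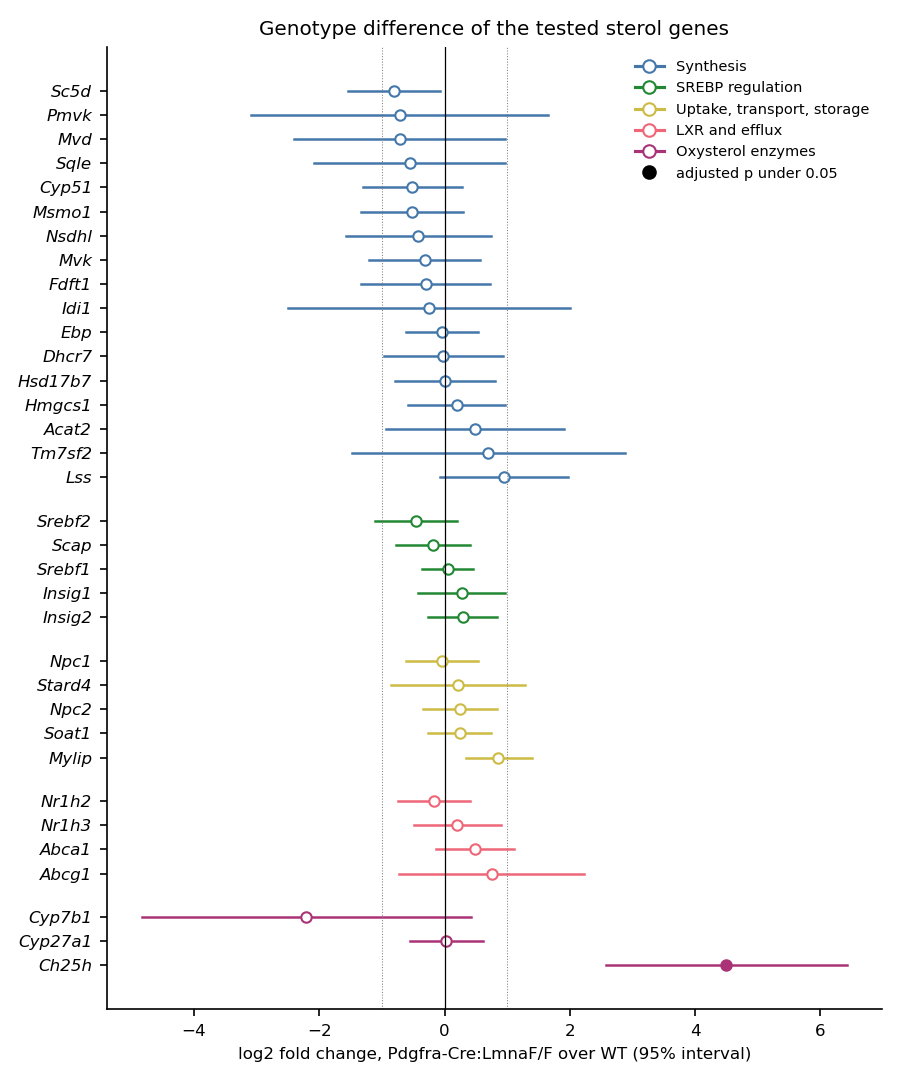
The log2 fold change of Pdgfra-Cre:LmnaF/F over WT (horizontal axis) of each of the 34 tested genes, grouped by role, with its 95% interval from edgeR. The dotted lines mark -1 and 1. The single filled point is Ch25h at 4.50, and the intervals of all others but Mylip and Sc5d include 0.

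The oxysterol enzymes gave the largest difference and also the widest. Ch25h, a gene of a single exon at chr19:34473778-34475164 (minus strand), had 4, 1, 1 and 16 counts in WT replicates 1 to 4 and 162, 199, 233 and 21 counts in the Pdgfra-Cre:LmnaF/F replicates. This came to 0.374, 0.503, 0.16 and 1.66 CPM in WT and 16.8, 20.8, 26.8 and 1.75 CPM in Pdgfra-Cre:LmnaF/F. Pdgfra-Cre:LmnaF/F replicates 1 to 3 were an order of magnitude above every WT library, while replicate 4 was next to WT replicate 4. The exact Poisson intervals of these last libraries, 0.947 to 2.69 CPM in WT replicate 4 and 1.08 to 2.68 CPM in Pdgfra-Cre:LmnaF/F replicate 4, overlapped, so the groups were separated by less than the counting error. The log2 fold change was 4.50 (SE 0.90, 95% interval 2.58 to 6.42), a 22.6-fold higher fitted level, with an adjusted p of 0.0447 in edgeR. WT replicates 2 and 3, with 1 count each, were at the floor, so the size of this fold is uncertain. Of the exon bases of Ch25h, 11.5% overlap the antisense gene Gm26902, and the strand setting of the counting is not given in the sources used here.

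The call of Ch25h rested on single libraries and on the spread of the test. Without Pdgfra-Cre:LmnaF/F replicate 4 the log2 fold change was 4.86 with an adjusted p of 0.00697 in edgeR, whereas without any other 1 library the log2 fold change lay between 4.15 and 5.63 and the adjusted p between 0.0522 and 0.183. The adjusted p was 3.97e-05 in DESeq2 and 0.184 in limma-voom. Ch25h was high in the 3 Pdgfra-Cre:LmnaF/F libraries without Y-linked reads and low in the single library of that genotype with them. Among the 4 libraries without Y-linked reads the log2 fold change was 6.95 (SE 1.25), and among the 4 with them it was 0.95 (SE 2), each fit having 1 library in a group (WT replicate 3 and Pdgfra-Cre:LmnaF/F replicate 4), which is assumed to vary like the others. The difference between these was -6.01 (SE 1.74) in the fit with an interaction term, with an adjusted p of 0.135 in edgeR, and none of the 34 members passed that test, in which 0.407% of all genes did (53 of 13036). With Y-linked reads as a term beside genotype, the log2 fold change was 3.34 (SE 1.38, adjusted p = 0.304 in edgeR).

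Other cells and the isolation of the cells were measured beside Ch25h. The summed macrophage and monocyte markers were 75.6, 159, 173 and 646 CPM in Pdgfra-Cre:LmnaF/F replicates 1 to 4, so the level was highest in the library where Ch25h was low, and it was 83.4 to 236 CPM in WT. None of the 12 tested of the 14 markers passed the test. In Pdgfra-Cre:LmnaF/F replicates 1 to 4, 0, 3, 5 and 13 of the 14 markers were above the highest WT library. Csf1r, for example, was at 9.00, 25.4 and 19.1 CPM in replicates 1 to 3, against 3.52 to 12.7 CPM in WT, while Itgam had counts in WT replicate 2 and Pdgfra-Cre:LmnaF/F replicate 4 only. The part of macrophage RNA in the level of Ch25h was not tested. The summed level of 8 endothelial markers was 457, 447 and 465 CPM in Pdgfra-Cre:LmnaF/F replicates 1 to 3, where Ch25h was high, and 577 CPM in replicate 4, against 562 to 784 CPM in WT. None of the 8 passed the test or was at 0 in all libraries, and the part of endothelial RNA was not tested either. For 23 genes known to respond to tissue dissociation, the mean log2 CPM was 6.07 to 6.86 in WT and 7.26 to 7.65 in Pdgfra-Cre:LmnaF/F libraries, replicate 4 included at 7.39, and 2 of the 23 passed the test, beside 0.407% of all genes. The part of the dissociation response in the level of Ch25h was not tested.

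The other oxysterol enzymes did not pass the test. Cyp27a1, the mitochondrial sterol 27-hydroxylase, was at 188, 176, 112 and 158 CPM in WT and at 105, 114, 175 and 254 CPM in Pdgfra-Cre:LmnaF/F libraries. The groups overlapped, and the log2 fold change was 0.03 (95% interval -0.55 to 0.62). Cyp7b1, the oxysterol 7-alpha-hydroxylase that acts on 25-hydroxycholesterol, was at 2.34, 4.03, 10.9 and 2.69 CPM in WT and at 0.828, 2.61, 0 and 0.833 CPM in Pdgfra-Cre:LmnaF/F libraries. Its fitted level was lower in Pdgfra-Cre:LmnaF/F, with a log2 fold change of -2.21 (SE 1.23) and an adjusted p of 0.525 in edgeR, and the groups overlapped at replicate 2 of that genotype. The log2 fold change was -1.48 without WT replicate 3 and -3.12 without Pdgfra-Cre:LmnaF/F replicate 2. Per kb of exon, Cyp27a1 was the highest of the 35 genes in WT (73.0 ± 15.3 CPM per kb, SD, n = 4), while Ch25h was among the lowest (0.485 ± 0.484). In the Pdgfra-Cre:LmnaF/F libraries Ch25h was at 11.9 ± 7.70 CPM per kb (SD, n = 4), a level of the same order as Insig2 and Soat1.

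**Figure D2:**
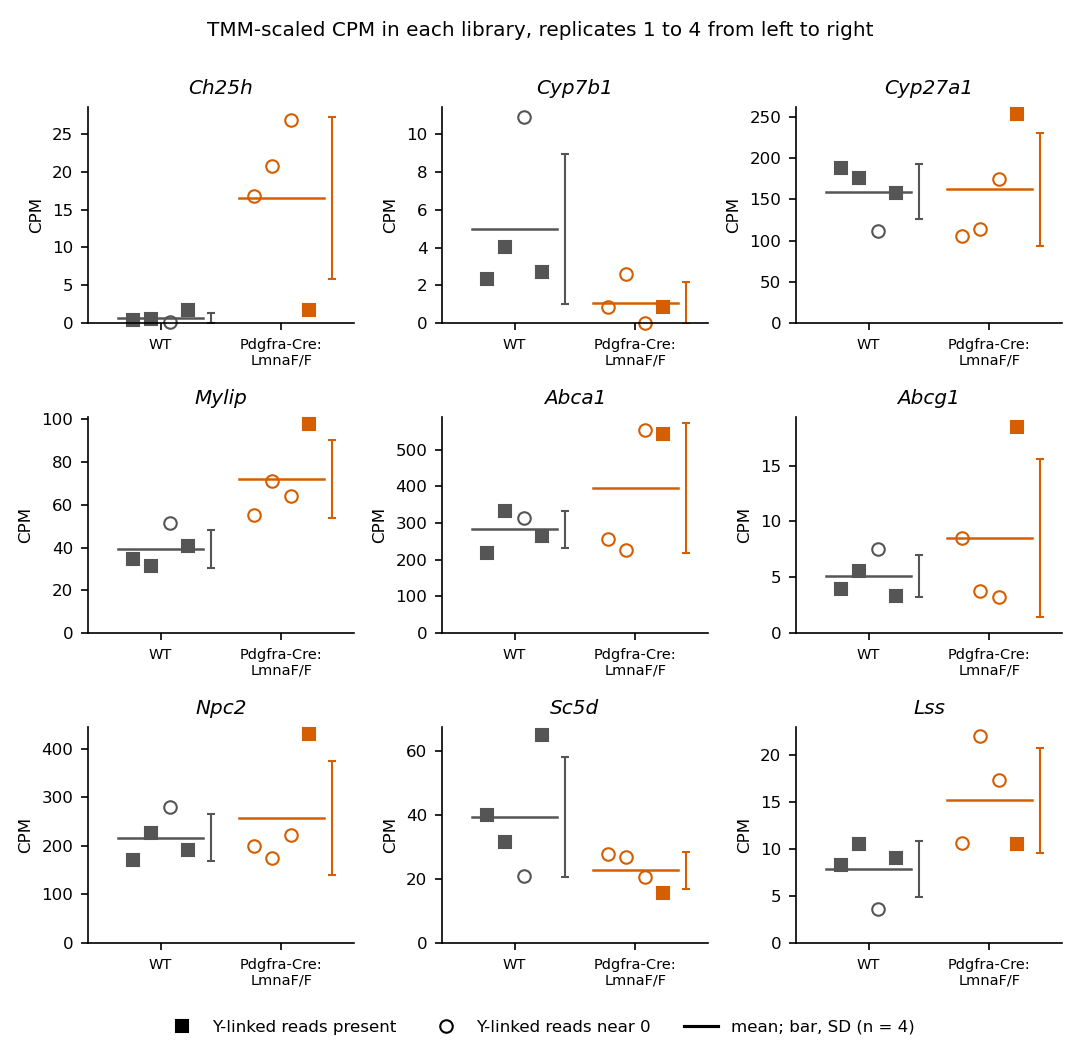
TMM-scaled CPM (vertical axis, from 0) of 9 sterol genes in each library, with the WT libraries in grey and the Pdgfra-Cre:LmnaF/F libraries in orange. Filled squares are libraries with Y-linked reads and open circles those near 0, and lines and bars give the mean and SD of 4 libraries. Ch25h lies between 16.8 and 26.8 CPM in 3 Pdgfra-Cre:LmnaF/F libraries and at 1.75 CPM in the library with Y-linked reads.

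The LXR and efflux genes did not pass the test in either direction. Abca1, which exports cholesterol to apolipoprotein A-I, was at 219, 332, 315 and 265 CPM in WT and at 258, 227, 554 and 542 CPM in Pdgfra-Cre:LmnaF/F libraries. Replicates 3 and 4 of the latter were above all WT libraries and replicates 1 and 2 were among them, and the log2 fold change was 0.48 (SE 0.29, adjusted p = 0.559 in edgeR). Abcg1, which exports cholesterol to high-density lipoprotein, was at 3.92, 5.53, 7.51 and 3.31 CPM in WT and at 8.48, 3.75, 3.22 and 18.5 CPM in Pdgfra-Cre:LmnaF/F libraries. It was highest in replicate 4 of that genotype, the library with the most macrophage markers, and the log2 fold change was 0.75 (SE 0.69, adjusted p = 0.753 in edgeR) and 0.03 without that library. The part of macrophage RNA in this level was not tested.

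The LXR genes themselves were alike in level and overlapped between the genotypes. Nr1h3, which encodes LXR-alpha, was at 37.6, 40.8, 71.4 and 54.1 CPM in WT and at 53.4, 102, 32.8 and 47.3 CPM in Pdgfra-Cre:LmnaF/F libraries. Its highest and lowest values were both in the latter, and the log2 fold change was 0.20 (95% interval -0.49 to 0.90). Nr1h2, which encodes LXR-beta, was at 78.8, 87.0, 41.5 and 74.7 CPM in WT and at 69.7, 61.9, 40.5 and 77.7 CPM in Pdgfra-Cre:LmnaF/F libraries, with a log2 fold change of -0.17 (95% interval -0.74 to 0.40). Per kb of exon the receptors were at 20.3 ± 6.13 (Nr1h3) and 21.0 ± 5.96 CPM per kb (Nr1h2) in WT (SD, n = 4), which overlap. Abca1 was at 27.3 ± 4.93 and Abcg1 at 0.695 ± 0.257 CPM per kb in WT, so that Abca1 was the main efflux transporter transcript of the pair. The median log2 fold change of the 4 genes was 0.34, and 0 of 4 passed the test.

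Among the genes of uptake, transport and storage, Mylip was the gene whose groups did not overlap. Mylip, also called Idol, marks lipoprotein receptors for degradation and is a target of LXR. It was at 34.5, 31.2, 51.4 and 40.6 CPM in WT and at 55.4, 71.0, 64.1 and 97.7 CPM in Pdgfra-Cre:LmnaF/F libraries, so that each of the latter was above each of the former. The log2 fold change was 0.86 (SE 0.25, 95% interval 0.34 to 1.39), a 1.82-fold higher fitted level, with an unadjusted p of 0.00338 and an adjusted p of 0.167 in edgeR, so it did not pass. The level was highest in replicate 4, where Ch25h was low, and the log2 fold change was 1.41 (SE 0.27) among the libraries with Y-linked reads, where replicate 4 is alone in its genotype, and 0.31 (SE 0.41) among those without. Among the libraries without Y-linked reads, WT replicate 3 is alone in its genotype, so no call is drawn from the difference.

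The other 4 genes of this group did not pass the test. Npc1, the lysosomal membrane protein that passes cholesterol out of the lysosome, was at 119, 115, 67.4 and 110 CPM in WT and at 87.9, 60.5, 101 and 150 CPM in Pdgfra-Cre:LmnaF/F libraries. Its values overlapped, and its log2 fold change of -0.04 (95% interval -0.62 to 0.54) was the lowest of the group. The log2 fold change was 0.24 for Npc2, the soluble partner of Npc1 in the lysosome, 0.22 for Stard4, a cytosolic sterol carrier, and 0.24 for Soat1, which esterifies cholesterol for storage, with adjusted p in edgeR of 0.773 to 0.923. The 95% interval of Stard4, -0.85 to 1.28, includes a 2-fold difference. Npc2 was at 171 to 280 CPM in 7 libraries and at 430 CPM in Pdgfra-Cre:LmnaF/F replicate 4, without which its log2 fold change was -0.12. In the fit with an interaction of genotype and Y-linked reads, the log2 fold change of Npc2 was higher by 1.63 (SE 0.37) with such reads than without. For Stard4 this difference was -2.80 (SE 0.97). Only replicate 4 had the reads among the Pdgfra-Cre:LmnaF/F libraries, and only replicate 3 lacked them among the WT libraries, so no call is drawn from these differences. Per kb of exon, Npc2 was the highest of these genes in WT, at 40.0 ± 8.82 CPM per kb (SD, n = 4), and Stard4 the lowest, at 2.29 ± 1.5.

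The SREBP machinery was expressed in every library and none of its 5 genes passed the test. Srebf2, the master activator of the synthesis genes, was at 107, 124, 50.6 and 163 CPM in WT and at 74.0, 56.9, 82.8 and 109 CPM in Pdgfra-Cre:LmnaF/F libraries. The WT libraries held both the highest and the lowest value, and the log2 fold change was -0.46 (SE 0.30, adjusted p = 0.608 in edgeR). Insig2, which retains SCAP in the endoplasmic reticulum, was at 33.7, 41.3, 27.5 and 46.6 CPM in WT and at 39.9, 45, 37.2 and 59.5 CPM in Pdgfra-Cre:LmnaF/F libraries, which overlap, with a log2 fold change of 0.29 (95% interval -0.26 to 0.83). Insig1, itself a target of SREBP, had a log2 fold change of 0.27 (SE 0.32) and was the most abundant of the group per kb of exon in WT (29.4 ± 14.3 CPM per kb, SD, n = 4). Scap had a log2 fold change of -0.18 (SE 0.28). Srebf1, which drives fatty acid synthesis and is a target of LXR, had the narrowest interval of the members, with a log2 fold change of 0.05 (95% interval -0.36 to 0.46). Its 8 libraries lay between 78.1 and 114 CPM.

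The synthesis enzymes did not pass the test either, and a single WT library held many of their highest levels. Of the 17 tested, 0 passed the test, 5 were fitted higher and 12 lower, and the median log2 fold change was -0.30. The median rested on WT replicate 4: without it the median was 0.08, with 9 genes fitted higher and 8 lower. On the log2 CPM scale relative to the WT mean of each gene, the median over the 17 genes was 0.80 in WT replicate 4 and between -0.29 and 0.30 in the other 7 libraries. WT replicate 4 had the highest WT level of Cyp51, Nsdhl, Hsd17b7, Sqle and Sc5d among others. Over the 8 libraries, after the genotype means were removed, the median Spearman correlation between pairs of synthesis genes was 0.17, with 17.6% of the 136 pairs above 0.5, beside a median of 0 and 12.7% of all pairs of tested genes. These libraries share their depth and scaling, and the correlation is a description.

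**Figure D3:**
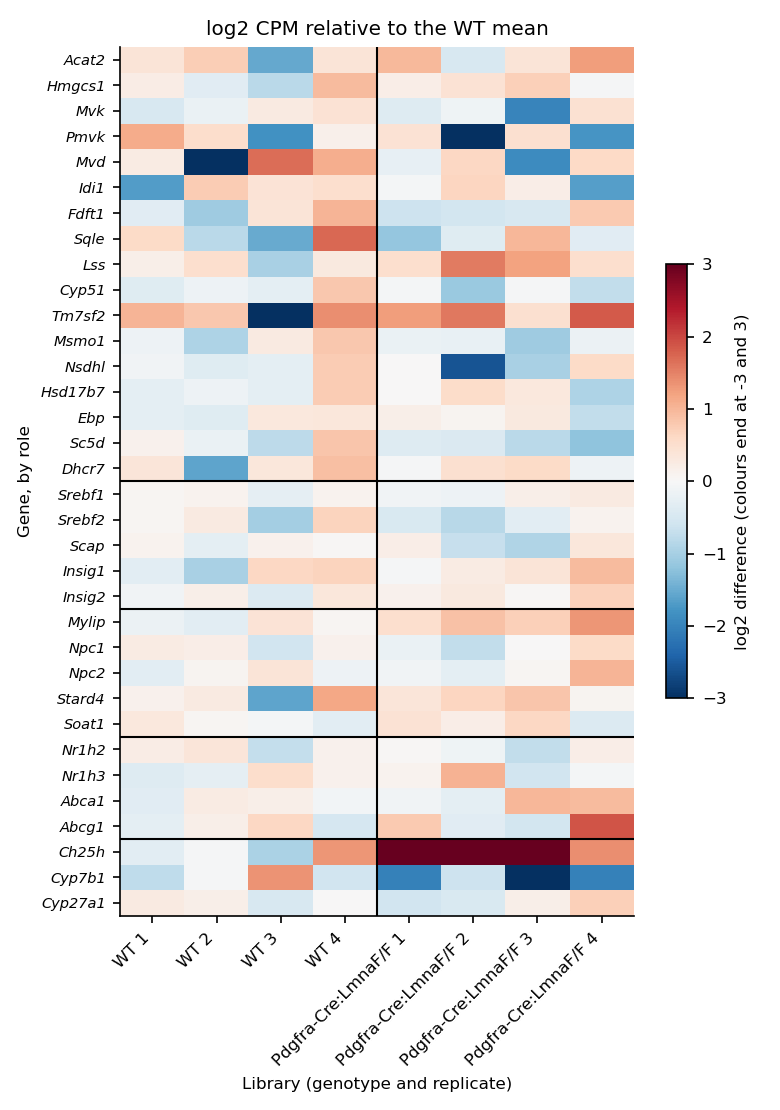
Log2 CPM of the 34 tested genes (rows, by role, with lines between the roles) in the 8 libraries (columns), each relative to the WT mean of the gene. Red is higher and blue lower, with colours ending at -3 and 3. The synthesis genes are mostly red in WT replicate 4, where their median is 0.80, and Ch25h is dark red in Pdgfra-Cre:LmnaF/F replicates 1 to 3.

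Sc5d, the desaturase that acts late in the pathway on lathosterol, had the lowest log2 fold change of the synthesis genes. It was at 40.1, 31.7, 21.1 and 65.1 CPM in WT and at 27.8, 26.9, 20.6 and 15.6 CPM in Pdgfra-Cre:LmnaF/F libraries. The groups overlapped through WT replicate 3, the WT library without Y-linked reads. The log2 fold change was -0.81 (SE 0.34, unadjusted p = 0.0332, adjusted p = 0.371 in edgeR), -1.61 (SE 0.42) among the libraries with Y-linked reads and 0.26 (SE 0.59) among those without. Each fit within a class of libraries had 1 library in a group (Pdgfra-Cre:LmnaF/F replicate 4 and WT replicate 3), so no call is drawn from that difference. Lss, which closes squalene epoxide into lanosterol, had the highest log2 fold change, with 8.32, 10.6, 3.67 and 9.11 CPM in WT and 10.7, 22.1, 17.4 and 10.5 CPM in Pdgfra-Cre:LmnaF/F libraries. Replicates 2 and 3 of the latter were above all WT libraries and replicates 1 and 4 were level with WT replicate 2, and the log2 fold change was 0.95 (SE 0.48, adjusted p = 0.463 in edgeR).

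The other synthesis enzymes are given in the order of the pathway. Among the early enzymes, which lead from acetyl-CoA to the isoprenoids, the log2 fold change was 0.49 (SE 0.67) for Acat2, 0.19 (SE 0.36) for Hmgcs1, -0.32 (SE 0.42) for Mvk, -0.72 (SE 1.11) for Pmvk, -0.72 (SE 0.79) for Mvd and -0.25 (SE 1.05) for Idi1. Hmgcs1, which forms HMG-CoA and whose promoter is shown above, had a 95% interval of -0.58 to 0.97. Fdps, the farnesyl diphosphate synthase, had 0 to 3.83 CPM, with 4 of 8 libraries at the floor, and 26.7% of its exon bases are shared with the readthrough gene Gm43738, so its low level is uncertain. The middle enzymes, on squalene and lanosterol, had log2 fold changes of -0.30 (SE 0.48) for Fdft1, -0.56 (SE 0.71) for Sqle and -0.52 (SE 0.37) for Cyp51. The late enzymes, which turn lanosterol products into cholesterol, had 0.70 (SE 1.02) for Tm7sf2, -0.52 (SE 0.38) for Msmo1, -0.42 (SE 0.54) for Nsdhl, 0.00 (SE 0.37) for Hsd17b7, -0.04 (SE 0.27) for Ebp and -0.02 (SE 0.44) for Dhcr7. All 15 of these tested genes overlapped between the groups.

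The counting of several synthesis genes is uncertain for reasons of sequence or of low counts in some libraries. Of the 100-base windows of the exons, 28.9% of those of Acat2, 15.8% of those of Idi1 and 7.92% of those of Tm7sf2 also occur in other genes. The gene that shared the most was the paralog Acat3 for Acat2, the pseudogene Gm13502 for Idi1 and the overlapping gene Vps51 for Tm7sf2. Pmvk, Mvd and Tm7sf2, with SEs of 0.79 to 1.11, were each at the floor in 1 library. Their 95% intervals ran from -3.09 to 1.65 for Pmvk, from -2.41 to 0.97 for Mvd and from -1.48 to 2.88 for Tm7sf2, and libraries of like depth differed widely, with 12 counts of Mvd in Pdgfra-Cre:LmnaF/F replicate 3 (8284882 counts in all) and 86 in replicate 2 (9300883).

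Per kb of exon, Ebp, the sterol isomerase, was the highest synthesis gene in WT, at 23.3 ± 6.09 CPM per kb, followed by Mvk at 10.7 ± 3.03 and Sc5d at 8.12 ± 3.86 (SD, n = 4). Mvk and Sc5d overlapped within their SD, and the lower neighbours Nsdhl (6.67 ± 2.72), Cyp51 (6.04 ± 2.68) and Hmgcs1 (5.28 ± 2.86) did so as well. The lowest were Idi1 (0.886 ± 0.483), Tm7sf2 (0.739 ± 0.523), Lss (0.734 ± 0.276) and Fdps (0.437 ± 0.400). The length is that of all annotated exons of a gene together, which is 10.8 kb for Lss and lowers its level per kb. The WT means of Insig1, Npc2 and Abca1 were above that of every synthesis gene per kb, and those of Insig1 and Abca1 overlapped Ebp within the SD.

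**Figure D4:**
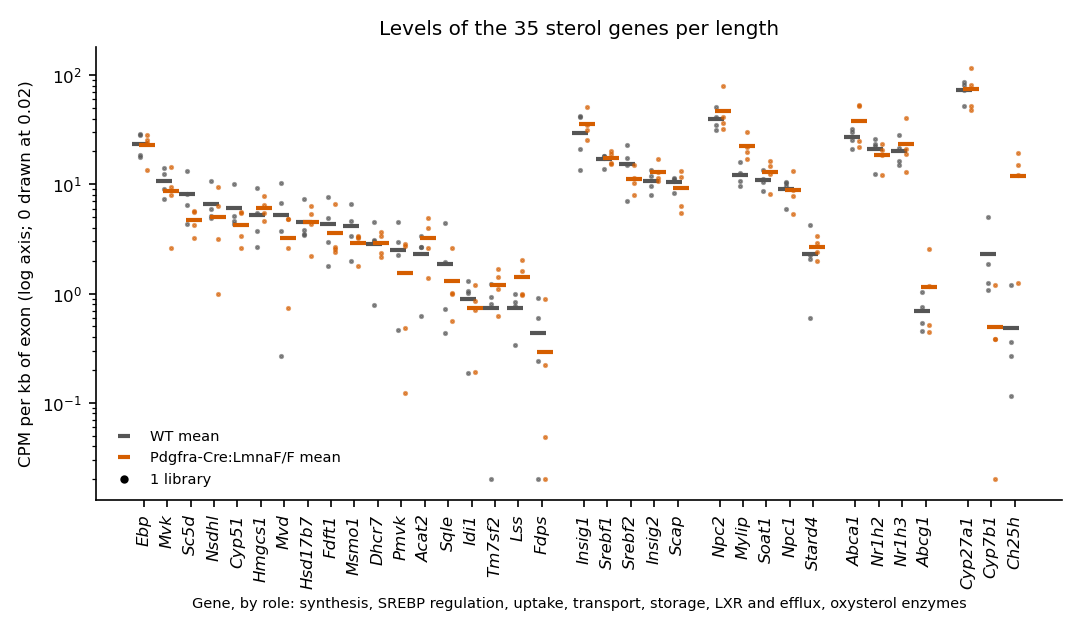
Levels of the 35 genes as CPM per kb of exon (vertical log axis), by role and in order of the WT mean within a role, with short bars for the mean of 4 libraries and points for single libraries, those with no count being drawn at 0.02. The WT means run from 0.437 (Fdps) to 73.0 (Cyp27a1), and Ch25h is the gene with the widest gap between the bars of WT (0.485) and Pdgfra-Cre:LmnaF/F (11.9).

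A further list of 43 sterol genes outside the 35 was read from the same fit, of which 41 were listed and tested. None of the 41 passed the test in edgeR, and 3 had an unadjusted p under 0.05, beside the 11.9% of all genes. Vldlr, a receptor of lipoproteins that Mylip also marks for degradation, was at 59.1, 55.3, 66.5 and 59.7 CPM in WT and at 72.8, 103, 73.8 and 134 CPM in Pdgfra-Cre:LmnaF/F libraries. All of the latter were above all of the former, and the log2 fold change was 0.67 (SE 0.23, adjusted p = 0.241 in edgeR). Abca2, an endosomal lipid transporter, was at 56.7, 81.5, 37.5 and 71.9 CPM in WT and at 44.4, 33.4, 37.2 and 43.2 CPM in Pdgfra-Cre:LmnaF/F libraries, with a log2 fold change of -0.64 (adjusted p = 0.342 in edgeR). The groups overlapped for Abca2.

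The medians of the further genes lay on both sides of that of all genes (0.02). The median log2 fold change was -0.09 over the 41, 0.13 over 3 synthesis genes, -0.15 over 7 SREBP genes, -0.01 over 14 genes of uptake and transport, and -0.32 over 12 genes of the LXR and efflux arm, among them Rxra, Lpcat3 and Scd1. Over the 5 further oxysterol genes it was 0.61, with 4 fitted higher and 1 lower. Of the LXR and efflux genes, 11 of 12 were fitted lower, whereas 3 of the 4 members of that role were fitted higher. Gpr183, the receptor of dihydroxylated oxysterols that are made from 25-hydroxycholesterol, had 0 to 5.53 CPM in the 8 libraries and a log2 fold change of 0.61 (SE 1.32).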

How the data were processed

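RNA of FACS-sorted PDGFRA+ ventricular cells of WT and Pdgfra-Cre:LmnaF/F mice was sequenced as 4 ribosome-depleted, strand-specific libraries per genotype, and genotypes were taken from the sample labels. Per the methods of the study, HISAT2 was used for alignment (mm10) and featureCounts for counting over GENCODE annotation, and the files deposited by the authors hold whole counts for each gene symbol, not scaled. The methods also name RUV normalization and the processing notes DESeq2, and the deposited counts hold neither.

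Counts were scaled with TMM factors, filtered with filterByExpr and tested with edgeR 4.0.16 (R 4.3.3) by its quasi-likelihood method in a model of genotype alone, and p-values were adjusted over all 13036 genes tested (Benjamini-Hochberg). Genes with an adjusted p under 0.05 passed. Log2 CPM used a prior count of 2, exon lengths came from GENCODE M21, and promoters from RefSeq (GRCm38.p6). Total counts were 2080555 to 12502949 per library, and 3 counts were taken as the floor. Intervals of counts are exact Poisson intervals and cover counting error only. The labels do not say that the libraries came from separate animals, so p-values measure the spread between these libraries, which may be technical.

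The members and lists were chosen with earlier results of these data known. Named with a value in every library were all oxysterol and efflux members, members and further sterol genes with an unadjusted p under 0.05, the members with the largest positive and negative log2 fold change among synthesis, SREBP and uptake genes, and Lmna. Of the further sterol genes under this rule, 1 is not reported here. The procedure was tested on simulated data. The alternatives were DESeq2 1.42.0, weighted limma-voom (limma 3.58.1), upper-quartile or RLE factors, a stricter filter (10 counts or more in each library) or none, 1 RUVr factor, a replicate block, and leave-one-out fits. Fits with Y-linked reads as a term, as an interaction or within each class of libraries were added after the data were seen. Deviations of same-numbered libraries from their group means correlated at -0.03 to 0.04. This does not settle whether the replicate numbers are pairs, and the labels do not say so. Libraries of a genotype differed beyond sampling noise, so none was counted as a duplicate (chi-square over degrees of freedom 15.2 to 102).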

Additional observations from a re-analysis of the deposited data

Results flagged for a closer look

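Of 78 groups of 4 libraries tested, 6 held a library far from the other 3 (a gap to the nearest library, as a share of the group's range, above the 95% critical value of Dixon), where chance flags about 1 in 20 groups. WT replicate 4 was the highest of its group for 3 synthesis genes, at 44.3 CPM for Cyp51 (the others 19.3 to 22.6), 30.5 CPM for Nsdhl (14.1 to 16.8) and 37.1 CPM for Hsd17b7 (17.7 to 19.6). WT replicate 3 was the lowest of its group for Srebf1, at 78.1 CPM, against 98.8 to 103 CPM. In the Pdgfra-Cre:LmnaF/F group, Fdft1 was at 27.8 CPM in replicate 4 (the others 10.2 to 11.4), and Msmo1 at 10.9 CPM in replicate 3 (19.9 to 20.6).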

How the results depend on the processing

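Ch25h kept its direction in all alternatives. Its adjusted p stayed under 0.05 with DESeq2, RLE and upper-quartile factors, no filter and RUVr, but the log2 fold change of 3.69 in limma-voom had an adjusted p of 0.184, and a minimum of 10 counts in every library removed the gene. Leaving out 1 library gave 4.15 to 5.63. With Y-linked reads as a term it was 3.34, and among libraries with Y-linked reads 0.95. With the replicate block it was 4.51 (adjusted p = 0.188 in edgeR). The block took 0 members past the threshold, as did limma-voom, the minimum of 10 counts and the Y-linked term. Leaving out 1 library left 0 or 1 member.

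Over all genes, 53 passed in edgeR, 310 in DESeq2, 126 in limma-voom, 274 without a filter, 82 with RUVr, 112 with the Y-linked term and 13 to 76 without 1 library. The median of the synthesis genes was -0.47 to 0.08 without 1 library and kept its sign otherwise. No gene of the further sterol list passed in any alternative that did not involve Y-linked reads, and Lmna passed in all of these. Within libraries with Y-linked reads, Mylip was 1.41 and Sc5d -1.61, and no call is drawn from this fit, since Pdgfra-Cre:LmnaF/F is replicate 4 alone there, the library with the most macrophage and cardiomyocyte markers. The cause of these changes was not tested.

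Of 33 members other than Ch25h, 19 kept their sign in all alternatives without Y-linked reads, and those that changed it had small log2 fold changes for their error. In limma-voom these were Hmgcs1 (-0.17), Hsd17b7 (-0.31), Srebf1 (-0.05), Stard4 (-0.14) and Cyp27a1 (-0.21). Hsd17b7 was -0.01 with upper-quartile factors and -0.02 without a filter. With the replicate block Dhcr7 was 0.12 and Cyp27a1 -0.03. With the Y-linked term Sqle was 0.17, Hsd17b7 -0.26, Srebf2 0.11, Npc1 0.35, Nr1h2 0.21 and Nr1h3 -0.05, and Sc5d was 0.26 among libraries without Y-linked reads. Without 1 library the ranges were -0.04 to 0.61 for Hmgcs1, -0.60 to 0.07 for Idi1, -0.79 to 0.12 for Fdft1, -1.15 to 0.30 for Sqle, -0.20 to 0.34 for Hsd17b7, -0.15 to 0.14 for Ebp, -0.31 to 0.28 for Dhcr7, -0.04 to 0.11 for Srebf1, -0.41 to 0 for Scap, -0.31 to 0.13 for Npc1, -0.12 to 0.39 for Npc2, -0.11 to 0.72 for Stard4, -0.20 to 0.41 for Nr1h3 and -0.27 to 0.19 for Cyp27a1.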

Other observations

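Of the 41 further sterol genes outside the 35, 4 had a fitted difference of more than 2-fold, and none of them passed the test. Cyp46a1, the cholesterol 24-hydroxylase, was at 2.43, 5.53, 8.47 and 0.932 CPM in WT and at 1.03, 1.36, 0 and 0 CPM in Pdgfra-Cre:LmnaF/F libraries, with a log2 fold change of -2.82 (SE 1.47, adjusted p = 0.478 in edgeR). Gramd1b, a carrier of cholesterol from the plasma membrane, was at 5.98 to 31.7 CPM in WT and at 0.417 to 12.9 CPM in Pdgfra-Cre:LmnaF/F libraries (log2 fold change -1.07, SE 0.79, adjusted p = 0.663 in edgeR). The groups overlapped for both genes. Its relative Gramd1c was at 0 to 2.01 CPM in WT and at 2.17 to 10.4 CPM in Pdgfra-Cre:LmnaF/F libraries (log2 fold change 2.03, SE 1.16, adjusted p = 0.539 in edgeR). Cyp39a1, an oxysterol 7-alpha-hydroxylase, was at 5.23 to 10.9 CPM in WT and at 13.6, 10.4, 2.30 and 44.7 CPM in Pdgfra-Cre:LmnaF/F libraries (log2 fold change 1.21, SE 0.67, adjusted p = 0.52 in edgeR), so that replicate 4 was the highest and replicate 3 the lowest of all 8. Gramd1c was also among the genes whose groups did not overlap, as was Rxrb, a partner of the LXRs, at 62.8 to 79.5 CPM in WT and 38.6 to 62.3 CPM in Pdgfra-Cre:LmnaF/F libraries (log2 fold change -0.42, SE 0.22, adjusted p = 0.478 in edgeR), where 8.03% of all genes did not overlap. These 5 genes were chosen after their values were seen.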
